A study of Homo sapiens with 12 samples.

Results

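The transcripts of 9 genes around the tumour suppressor p53 were followed in HD-MB03 cells treated with entinostat. MDM2, MDM4 and PPM1D encode proteins that hold p53 back, and SESN1, GADD45A, BTG2, ZMAT3 and TP53INP1 are genes that p53 is known to switch on. GADD45B, a close relative of GADD45A known mainly for its induction by NF-kappaB and TGF-beta signals, was followed with them. A probe set, the group of short probes that reads 1 transcript region on the array, was taken as a member when the array annotation names 1 of these genes, by its current or former symbol, and no other gene. Of the 9 genes, 8 had such probe sets, 32 in all out of 54613 tested: 10 for MDM2, 6 for MDM4, 5 for ZMAT3, 4 for GADD45B, 3 for TP53INP1, 2 for PPM1D and 1 each for SESN1 and GADD45A. BTG2 was not analysed here, because none of the probe sets carries its name in the annotation used. HD-MB03 is a human Group 3 medulloblastoma cell line with amplified MYC. Entinostat blocks the class I histone deacetylases, enzymes that take acetyl groups off histones. The 4 groups were cells given 1 µM entinostat for 24 h, cells given the solvent DMSO for 24 h, cells given 1 µM entinostat for 48 h and cells given DMSO for 48 h. Each group had 3 biological replicates, and the 12 RNA samples went onto 1 Affymetrix Human Genome U133 Plus 2.0 array each. The study also used idasanutlin, a small molecule that keeps MDM2 from binding p53, in its drug panel.

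p53 is a transcription factor that is kept scarce in unstressed cells, because MDM2 tags it for destruction and MDM4 covers the region with which it activates genes. DNA damage and other stresses loosen that hold, and p53 then binds response elements made of paired half-sites in the regulatory DNA of genes for growth arrest, repair, metabolism and cell death. MDM2 is itself such a gene, read from a second promoter inside the gene when p53 is active, so that the pathway limits itself. Most medulloblastomas keep a normal p53 gene, and many of the genes named here also respond to signals that do not pass through p53.

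The values deposited are linear intensities, with array medians between 80.7 and 81.9 and a lowest value of 36.7, so a background level is left in them and fold changes of probe sets near it come out too small. Of 7 fixed markers of Group 3 medulloblastoma, 5 had a median intensity over 200, and NPR3 and CRX did not. The summed intensity of these 7 markers was 18430 to 19790 under entinostat and 21630 to 24540 under DMSO at 24 h, and 22220 to 22760 under entinostat and 24330 to 25950 under DMSO at 48 h. None of 13 markers of fibroblasts, leukocytes, endothelium, astrocytes and epithelium had a median over 200. As a sign of RNA quality, the 3' minus 5' log2 difference of the ACTB control probe sets averaged -0.14 under entinostat and -0.07 under DMSO at 48 h (exact permutation test, two-sided, p = 0.1, the smallest p that 3 arrays against 3 allow), and its part in the results at 48 h was not tested. The same exact permutation test gave p = 1 for ACTB at 24 h, and for GAPDH p = 0.6 at 24 h and p = 0.3 at 48 h.

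Of the 9 genes, 7 had promoter sequence in the RefSeq table used (build GRCh38.p14). The 250 bases before each annotated start were searched on both strands for the p53 half-site pair, 2 half-sites of 10 bases each with 0 to 13 bases between them, and the best pair was scored by its matching letters out of 20. The stretches shown belong to MDM2, a negative regulator that p53 switches on, and to the members that rose with the most probe sets. The capitals mark the best pair, 5′ to 3′.
MDM2, inner start, chr12:68808774-68809023, plus strand: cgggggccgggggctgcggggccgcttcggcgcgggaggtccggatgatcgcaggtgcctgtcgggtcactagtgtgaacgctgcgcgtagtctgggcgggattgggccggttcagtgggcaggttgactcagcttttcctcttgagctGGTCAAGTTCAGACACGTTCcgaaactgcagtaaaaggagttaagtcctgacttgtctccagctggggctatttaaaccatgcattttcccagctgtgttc
GADD45B, chr19:2475877-2476126, plus strand: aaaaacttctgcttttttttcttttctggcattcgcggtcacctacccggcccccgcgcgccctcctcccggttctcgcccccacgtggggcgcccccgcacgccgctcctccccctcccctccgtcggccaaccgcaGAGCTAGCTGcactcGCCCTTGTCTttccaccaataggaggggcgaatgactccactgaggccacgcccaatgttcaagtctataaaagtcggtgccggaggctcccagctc
ZMAT3, chr3:179071810-179072059, minus strand: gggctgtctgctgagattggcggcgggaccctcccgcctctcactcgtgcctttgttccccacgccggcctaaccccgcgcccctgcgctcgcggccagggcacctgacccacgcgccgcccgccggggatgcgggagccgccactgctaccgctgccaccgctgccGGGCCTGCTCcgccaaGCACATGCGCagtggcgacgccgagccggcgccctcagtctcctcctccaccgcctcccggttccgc
The MDM2 pair matched in 18 of 20 letters with 0 bases between the half-sites and lay at -101 to -82 from the start. Of all 34941 promoter windows, 6.63% held a pair at least as good. The GADD45B and ZMAT3 pairs matched in 17 letters, a score reached by 34.1% of windows, with 5 and 6 bases in between. Other starts scored differently: the outer MDM2 starts, another ZMAT3 start and the PPM1D start had best pairs of 16 letters, a score reached by 79.3% of windows. A start of SESN1, which passed the test at neither time, also had a pair of 18 letters. The GADD45B stretch also held 2 copies of the CCAAT box (CCAAT), which 32% of windows hold, while the MDM2 and ZMAT3 stretches each held 1 copy of it and 1 copy of the GC box (GGGCGG), which 42.5% of windows hold. A match is a description of letters and not a measurement of p53 binding.

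After 24 h of entinostat, GADD45A, all 4 probe sets of GADD45B and 4 of 5 probe sets of ZMAT3 were higher than under DMSO, by 1.22-fold to 2.30-fold. After 48 h, GADD45A, all 4 probe sets of GADD45B and all 5 of ZMAT3 were higher, by 1.18-fold to 2.06-fold. MDM2, MDM4 and PPM1D, the negative regulators, had 18 probe sets between them, of which 1 passed the test at 24 h and 2 at 48 h. In limma's test with Benjamini-Hochberg adjustment over all probe sets and a threshold of 0.05, 10 of the 32 member probe sets passed at 24 h, 9 higher and 1 lower, against 25.2% of all probe sets in either direction, 12.8% higher and 12.4% lower. At 48 h, 14 passed, 11 higher and 3 lower, against 26.1% of all probe sets, 12.9% higher and 13.2% lower. The arrays of the groups did not overlap for 11 member probe sets that were higher and 4 that were lower at 24 h, against 17.4% and 21.5% of all probe sets (38.9% in all), and for 11 and 4 at 48 h, against 17.4% and 20.5% (37.9% in all). The 9 probe sets that passed at both times did so in the same direction, and they belong to GADD45A, GADD45B and ZMAT3. The share of all probe sets that passed at both times was not counted, so this count has no background beside it. The median log2 fold change over the 32 was 0.07 at 24 h and 0.02 at 48 h, beside -0.03 and -0.02 over all probe sets. Since RNA was taken from whole cultures, fewer cells that make a transcript and less RNA of it per cell cannot be told apart.

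**Figure D1:**
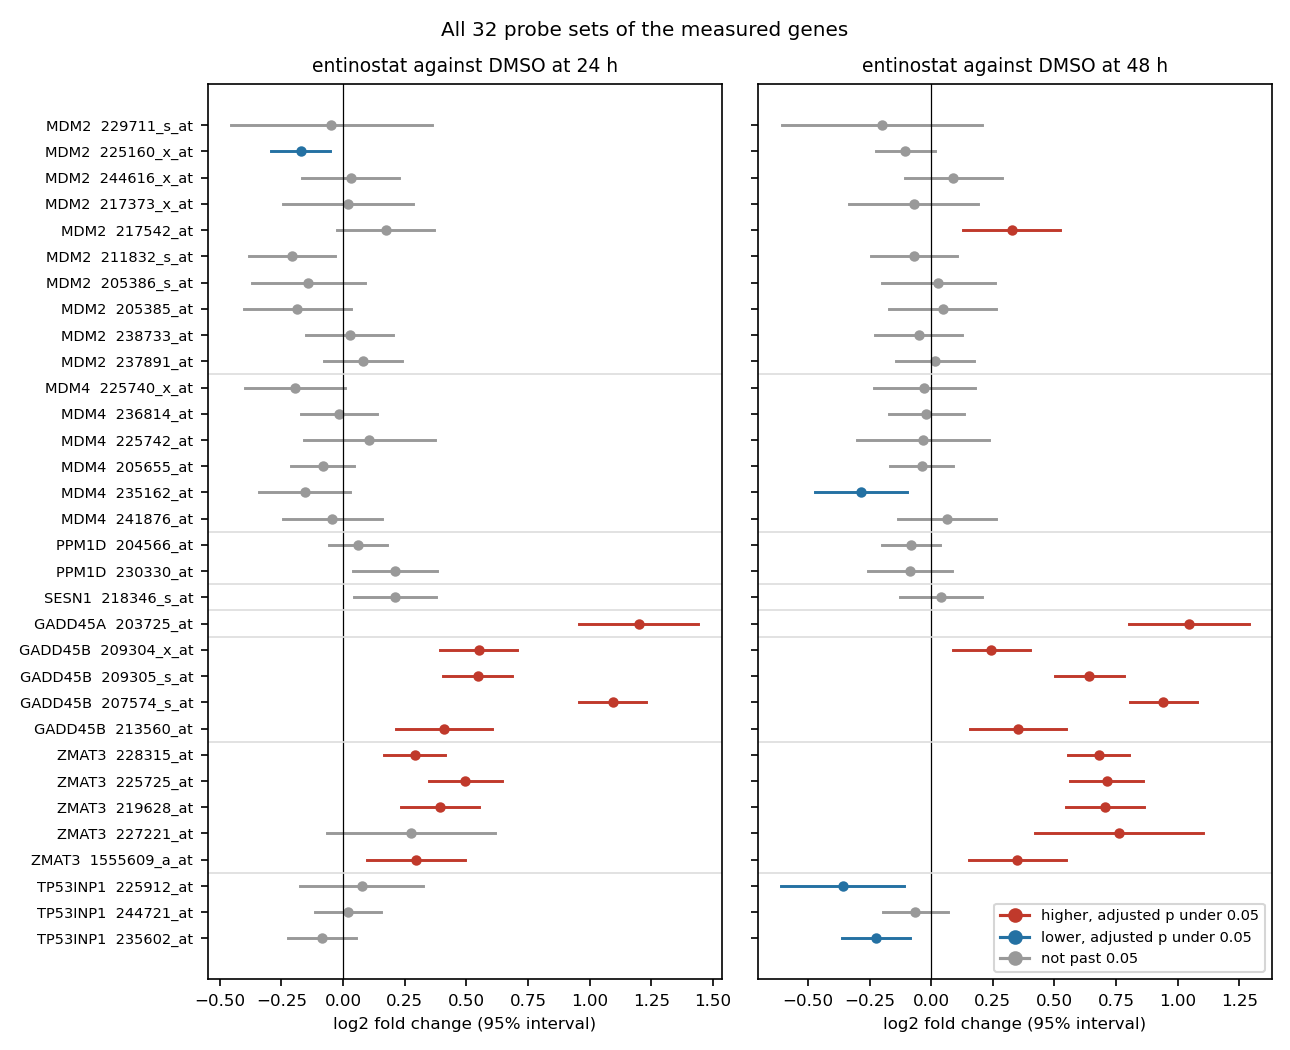
Log2 fold change of entinostat against DMSO at 24 h (left) and 48 h (right) for each of the 32 probe sets, with points for the estimate and lines for the 95% interval from limma. The intervals of GADD45A and of all GADD45B probe sets lie above 0 at both times, whereas 15 of the 18 MDM2, MDM4 and PPM1D probe sets passed the test at neither time. Several of the MDM2 probe sets are dim, so that their fold changes come out too small.

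MDM2, the ubiquitin ligase that marks p53 for degradation, was not shown to change by 229711_s_at, the MDM2 probe set of the highest mean. Its intensities were 741, 1058 and 1025 under entinostat at 24 h, against 1112, 740.5 and 1077 under DMSO at 24 h. At 48 h they were 762, 756 and 1092 under entinostat, against 960, 904 and 1096 under DMSO. The groups overlapped at both times, with 1 low array in each treatment at 24 h and 2 low arrays under entinostat at 48 h. The log2 fold change was -0.05 at 24 h (95% interval -0.45 to 0.36) and -0.20 at 48 h (-0.60 to 0.21), intervals that hold both rises and falls. A second MDM2 probe set, 225160_x_at, had 420, 404 and 398 under entinostat at 24 h, against 469, 443 and 464 under DMSO. These groups did not overlap, and the log2 fold change of -0.17 in limma's fit (adjusted p = 0.0363) was past the threshold. At 48 h the same probe set gave -0.11 (adjusted p = 0.205), and the call at 24 h was lost when any array of that time other than DMSO replicate 2 or entinostat replicate 1 was left out (-0.17 to -0.16, adjusted p of 0.0969 to 0.112). The x_at in its name marks probes that can bind several transcripts.

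The MDM2 probe set 217542_at went the other way, with intensities of 150.3, 136 and 146 under entinostat at 48 h, against 132, 114 and 100.4 under DMSO. The groups did not overlap, and the log2 fold change was 0.33 (standard error 0.09, adjusted p = 0.0171). At 24 h it was 0.17 (95% interval -0.02 to 0.37). This rise was lost from the calls without DMSO 48 h replicate 3 (log2 fold change 0.23, adjusted p = 0.0742), without entinostat 48 h replicate 1 (0.30, adjusted p = 0.063) and without entinostat 48 h replicate 3 (0.32, adjusted p = 0.0512). The remaining 7 MDM2 probe sets, besides these 3, passed at neither time, with log2 fold changes between -0.21 and 0.08 at 24 h and between -0.07 and 0.09 at 48 h. Over the 12 arrays the 10 MDM2 probe sets did not move together: the 45 pairwise Pearson correlations had a median of -0.03, and their points share the array and the treatment groups. The dim probe sets are included in these correlations.

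MDM4, the relative of MDM2 that masks the activating region of p53, had 6 probe sets, and none passed at 24 h. The probe set 225740_x_at had 726, 652.5 and 707 under entinostat at 24 h, against 798.5, 757 and 831 under DMSO, without overlap but short of the threshold (log2 fold change -0.20, 95% interval -0.40 to 0.01, adjusted p = 0.166). At 48 h the same probe set gave -0.03 (-0.23 to 0.18). The exception was 235162_at at 48 h, with 132, 142 and 157 under entinostat, against 172, 173 and 179.8 under DMSO, and a log2 fold change of -0.29 (adjusted p = 0.0259). This call was lost in 5 of the 6 refits that left out an array of 48 h, all but the one without entinostat replicate 3 (log2 fold changes of -0.30 to -0.23, adjusted p of 0.0537 to 0.106). PPM1D, the phosphatase that removes activating phosphates from p53 and its kinases, had intensities of 896, 897 and 821 under entinostat at 24 h, against 824, 815 and 869 under DMSO, with probe set 204566_at. Its log2 fold change was 0.06 at 24 h (95% interval -0.06 to 0.18) and -0.08 at 48 h (-0.20 to 0.04). The second PPM1D probe set, 230330_at, gave 0.21 (adjusted p = 0.0692) after 24 h and -0.09 (adjusted p = 0.504) after 48 h. Without DMSO 24 h replicate 2 its value at 24 h passed, at 0.27 (adjusted p = 0.0345).

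GADD45A encodes a small stress protein that binds cell cycle and repair proteins and activates stress kinases, and with the values as deposited it had the largest log2 fold change of the 32 probe sets at both times. With 203725_at, its intensities were 1698, 1524 and 1271 under entinostat at 24 h, against 758, 594 and 604 under DMSO at 24 h. At 48 h they were 1382, 1430 and 1473 under entinostat, against 637, 733 and 709 under DMSO. Every entinostat array was far above every DMSO array, and the 3 arrays of 24 h under entinostat were spread more widely than those of 48 h. The rise was 2.30-fold at 24 h (95% interval 1.94 to 2.72, limma adjusted p = 5.47e-06) and 2.06-fold at 48 h (1.74 to 2.44, adjusted p = 1.54e-05). With 30 subtracted from every value, the log2 fold change of GADD45A was 1.24 after 24 h and 1.08 after 48 h, below the 1.56 and 1.43 of GADD45B 207574_s_at. With the values as deposited, 0.945% of all probe sets had a larger log2 fold change at 24 h.

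GADD45B, a close relative with the same kind of partners, is known mainly as a gene induced by NF-kappaB and TGF-beta signals. Its probe set 207574_s_at had 153, 156 and 149.6 under entinostat at 24 h, against 69.8, 68.4 and 77.0 under DMSO. At 48 h it had 118, 132.7 and 129.5 under entinostat, against 63.7, 68.9 and 65.4 under DMSO. The groups were well apart at both times, and the DMSO values lie below the median intensity of the arrays. The rise was 2.13-fold at 24 h (adjusted p = 1.13e-07), and 1.92-fold (adjusted p = 3.21e-07) after 48 h. The other 3 GADD45B probe sets rose by log2 fold changes of 0.41 to 0.55 at 24 h and 0.24 to 0.64 at 48 h. All 4 have a mean log2 intensity under 7, and with 30 subtracted from every value the log2 fold changes at 48 h were 1.43 for 207574_s_at and 0.57 for 213560_at, beside 0.94 and 0.35 as deposited. All 4 were without overlap between the groups at both times, and their pairwise correlations over the 12 arrays were 0.82 to 0.96.

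ZMAT3 encodes a zinc finger protein that binds RNA and alters the splicing and stability of other transcripts. Its probe set 228315_at had 675, 707 and 719.5 under entinostat at 24 h, against 529, 592 and 599 under DMSO. At 48 h it had 976, 999 and 979.7 under entinostat, against 619.7, 595 and 631 under DMSO. The groups did not overlap at either time, and the entinostat arrays of 48 h were higher than all others. The rise was 1.22-fold at 24 h (adjusted p = 0.00208), and 1.60-fold (adjusted p = 2.17e-06) after 48 h. The probe set 225725_at gave the same order, with 756, 803 and 683 under entinostat and 503, 575 and 512 under DMSO at 24 h, and 890.4, 918 and 941 under entinostat and 560.3, 552 and 566 under DMSO at 48 h. Its log2 fold change was 0.50 (adjusted p = 0.000146) after 24 h and 0.71 (adjusted p = 6.49e-06) after 48 h. The probe set that did not pass at 24 h, 227221_at, had a log2 fold change of 0.28 with an interval of -0.06 to 0.61, which was 0.46 (adjusted p = 0.0286) without entinostat 24 h replicate 3. At 48 h it had 0.76. Another ZMAT3 probe set, 1555609_a_at, was higher at 24 h by 0.30 (adjusted p = 0.03), a call that was lost without any 1 of the 6 arrays of 24 h (0.28 to 0.32, adjusted p of 0.054 to 0.0845). At 48 h it had 0.35, and 0.21 without entinostat 48 h replicate 1. The 10 pairwise correlations among the ZMAT3 probe sets were 0.70 to 0.98.

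**Figure D2:**
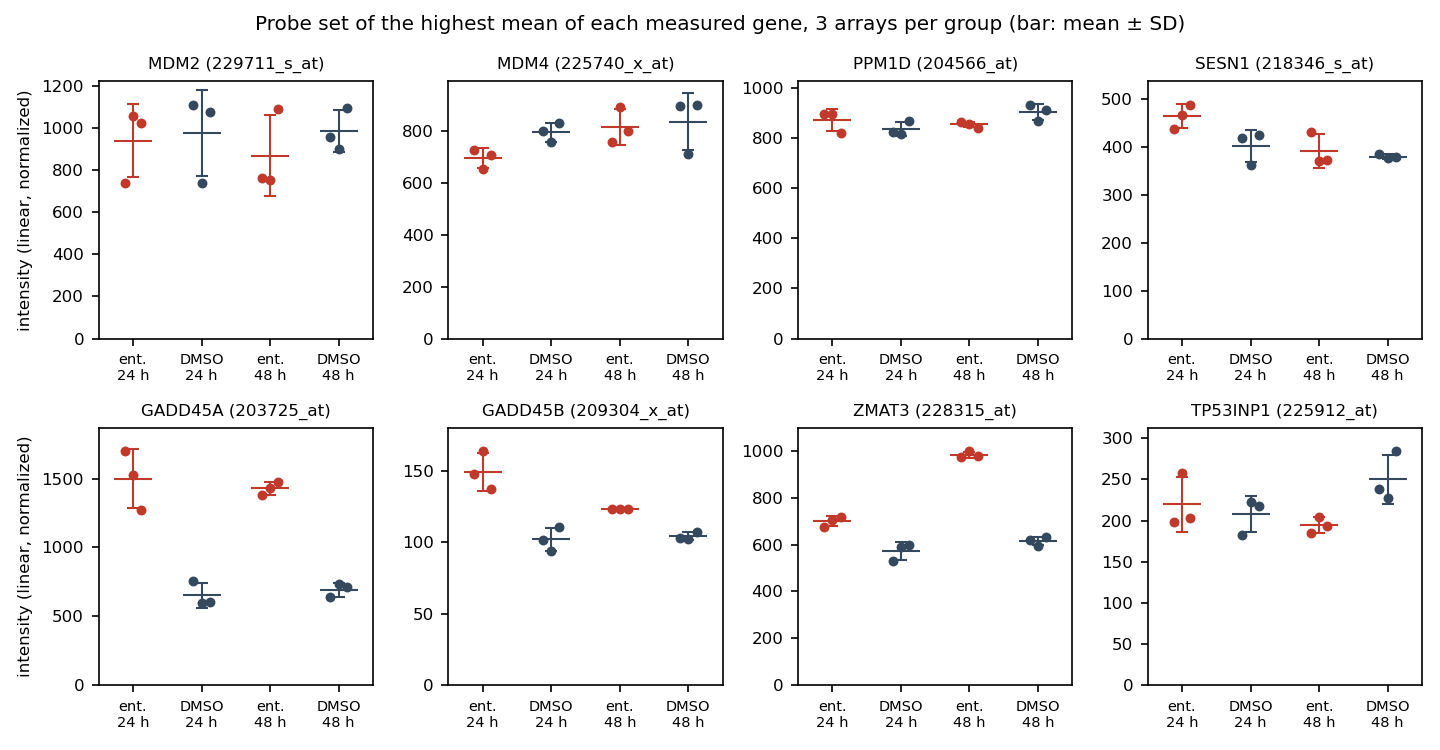
Normalized intensity on a linear scale in each of the 3 arrays per group (points), with the mean and SD, for the probe set of the highest mean of each of the 8 measured genes; the y axes start at 0 and differ between genes. GADD45A, GADD45B and ZMAT3 lie above their DMSO arrays at both times, and the entinostat arrays of TP53INP1 lie below DMSO at 48 h.

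SESN1, a sestrin that restrains the growth kinase complex mTORC1, had intensities of 437, 467 and 487 under entinostat at 24 h, against 417, 362 and 424 under DMSO. The groups did not overlap, but the log2 fold change of 0.21 (95% interval 0.04 to 0.38, adjusted p = 0.0642) missed the threshold over all probe sets. It passed when probe sets of a low mean were left out (adjusted p = 0.0379) and without entinostat 48 h replicate 1 (adjusted p = 0.0387). At 48 h the values were 431, 370 and 372 under entinostat, against 384, 376 and 378 under DMSO, with a log2 fold change of 0.04 (-0.13 to 0.21).

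TP53INP1, a stress protein that takes part in autophagy and helps phosphorylate p53, was lower at 48 h. Among the members other than MDM2, MDM4 and PPM1D, TP53INP1 was the only one with a fall against DMSO past the threshold. Its probe set 225912_at had 185, 205 and 193 under entinostat at 48 h, against 238, 228 and 284 under DMSO. The groups did not overlap, and the log2 fold change was -0.36 (standard error 0.11, adjusted p = 0.0358 in limma). With 30 subtracted from every value it was -0.41 and missed the threshold (adjusted p = 0.0506). At 24 h the values were 198, 258 and 203 under entinostat, against 183, 223 and 217.5 under DMSO, and the log2 fold change was 0.07 (95% interval -0.17 to 0.32). From 24 h to 48 h, 225912_at changed by 0.27 in DMSO, without overlap of the arrays, and by -0.17 in entinostat. Neither change passed in limma's test (adjusted p = 0.408 and 0.501). A second probe set, 235602_at, fell by 0.22 on the log2 scale at 48 h (adjusted p = 0.0205), at intensities of 49.7 to 63.8 near the lowest values of the arrays. The third, 244721_at, did not pass at 48 h (-0.06, interval -0.20 to 0.07). The call of 225912_at was lost in 5 of the 6 refits without 1 array of 48 h, all but the one without DMSO replicate 2 (log2 fold changes of -0.40 to -0.26, adjusted p of 0.0504 to 0.15), and that of 235602_at without DMSO replicate 2, DMSO replicate 3 or entinostat replicate 1 (-0.22 to -0.18, adjusted p of 0.0594 to 0.0853).

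The response to entinostat differed between the times with 1 of the 5 ZMAT3 probe sets, and with no probe set of the other members was a difference shown. In the interaction of treatment and time, the log2 fold change of 228315_at was larger at 48 h than at 24 h by 0.39 (95% interval 0.21 to 0.56, adjusted p = 0.0431), 1 of 32 member probe sets, beside 1.21% of all probe sets. Leaving out any array other than DMSO 24 h replicate 1 ended this call, with differences of 0.36 to 0.41 and adjusted p of 0.0749 to 0.0939. The other 4 ZMAT3 probe sets had differences of 0.05 to 0.49 in the same direction, which did not pass. For GADD45A the difference was -0.15 (-0.50 to 0.19), and for TP53INP1 225912_at it was -0.43 (-0.79 to -0.08, adjusted p = 0.265). Within entinostat, 5 member probe sets differed between 48 h and 24 h, 3 higher and 2 lower at 48 h, beside 7.19% of all probe sets, 3.31% higher and 3.88% lower. ZMAT3 was higher at 48 h with 228315_at, 219628_at and 225725_at, by log2 fold changes of 0.49, 0.40 and 0.30, the last of which lost its call without entinostat 24 h replicate 1 or 3 or entinostat 48 h replicate 2 or 3 (0.23 to 0.31, adjusted p of 0.0507 to 0.0796) and with 30 subtracted (adjusted p = 0.064). GADD45B was lower at 48 h with 207574_s_at and 209304_x_at, by -0.27 with each. The call of 207574_s_at was lost without entinostat 24 h replicate 1 or 2 or entinostat 48 h replicate 1 (-0.27 to -0.22, adjusted p of 0.0601 to 0.0852), and that of 209304_x_at in 9 of the 12 refits, all but those without DMSO 24 h replicate 2 or 3 or entinostat 24 h replicate 3 (adjusted p of 0.0531 to 0.15). Both GADD45B calls were lost with 30 subtracted (adjusted p = 0.0708 and 0.0779). Within DMSO, 0 member probe sets passed between 48 h and 24 h, beside 0.359% of all probe sets, with log2 fold changes from -0.29 to 0.27.

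Relatives of GADD45A, SESN1 and TP53INP1 passed the test, some higher and 1 lower. GADD45G, the third GADD45 gene, was lower, with 146, 119 and 153 under entinostat at 24 h, against 253, 303 and 259 under DMSO. At 48 h it had 98.8, 106 and 107 under entinostat, against 186, 245 and 186 under DMSO. Its single probe set did not overlap between the groups at either time, and its log2 fold change was -0.97 at both (limma adjusted p of 6.34e-05 at 24 h and of 5.64e-05 at 48 h), beside 1.20 and 1.05 for GADD45A. SESN3, another sestrin, had 677, 584.5 and 486 under entinostat at 24 h, against 180.1, 252 and 157 under DMSO, a log2 fold change of 1.58 (adjusted p = 4.4e-05), and 1.61 (adjusted p = 3.42e-05) after 48 h. SESN2, a sestrin that senses leucine, had 0.79 at 24 h and 0.69 at 48 h (adjusted p = 2.4e-06 and 6.5e-06), beside 0.21 and 0.04 for SESN1. SESN2 is also counted among the p53 targets below. TP53INP2, the relative of TP53INP1 that links autophagy and transcription, had 826, 821 and 871.5 under entinostat at 48 h, against 257, 278 and 258 under DMSO. Its log2 fold change was 1.00 (adjusted p = 8e-05) after 24 h and 1.67 (adjusted p = 9.73e-07) after 48 h. Of the 13 family relatives listed and measured, 4 were higher and 1 lower at 24 h, and 3 were higher and 1 lower at 48 h. Among the genes represented by their probe set of the highest mean, 33.2% passed at 24 h, 18.2% higher and 15.0% lower, and 34.0% at 48 h, 17.3% higher and 16.6% lower. The relative that passed at 24 h alone was BTG3, an antiproliferative gene named after its value was seen (log2 fold change 0.30, adjusted p = 0.0125). The remaining 8 relatives, of the BTG, TOB and PPM1 families, passed at neither time. Differences between the genes of a family were not tested.

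**Figure D3:**
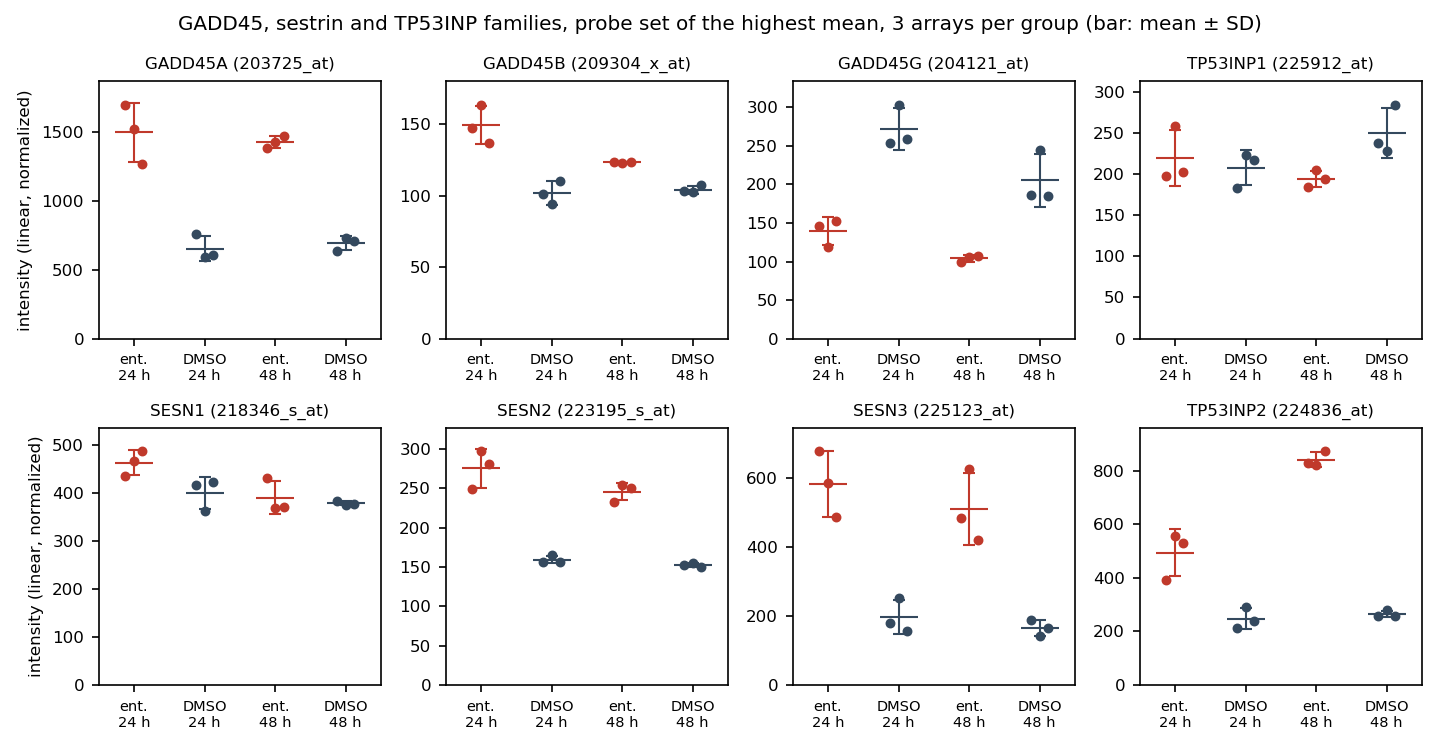
Normalized intensity on a linear scale in each array (points), with mean and SD, for the GADD45, sestrin and TP53INP genes, each by its probe set of the highest mean. GADD45A and GADD45B are higher and GADD45G is lower under entinostat at both times, SESN2 and SESN3 are higher while SESN1 overlaps with DMSO at 48 h, and TP53INP2 is higher while TP53INP1 is lower at 48 h.

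Other known targets of p53 went both ways. Of 36 listed, 33 had a probe set: 9 were higher and 8 lower at 24 h (51.5%), beside 18.2% and 15.0% of all genes (33.2% in all). At 48 h, 10 of the 33 were higher and 7 lower (51.5%), beside 17.3% and 16.6% of all genes (34.0% in all). Their median log2 fold change was -0.04 at 24 h and -0.03 at 48 h, beside -0.02 and -0.01 over all genes. At both times 8 were higher and 5 lower, and 0 changed sides. The share of all genes that passed at both times was not counted, so these counts have no background beside them. Nor was the share that passed at each time counted among genes of like intensity, and all genes include those of low signal. PLK2, a polo-like kinase, had intensities of 227.1, 227.7 and 221 under entinostat at 24 h, against 61.7, 73.2 and 72.3 under DMSO, a log2 fold change of 1.71 (adjusted p = 1.5e-06), and 1.31 after 48 h (adjusted p = 1.2e-05). CYFIP2, a part of the actin-regulating WAVE complex, had 1.51 at 24 h and 0.92 at 48 h. CDKN1A, which encodes the cell cycle inhibitor p21, had 541, 672 and 581 under entinostat at 24 h, against 372.5, 471.5 and 353 under DMSO. At 48 h CDKN1A had 605, 536.5 and 754 under entinostat, against 369, 361 and 332 under DMSO. The groups did not overlap, and the log2 fold change of CDKN1A was 0.59 (adjusted p = 0.00512) after 24 h and 0.82 (adjusted p = 0.000454) after 48 h.

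Among the targets that fell, PERP, a membrane protein of cell junctions and cell death, had 790.3, 603 and 698 under entinostat at 24 h, against 2008, 1819 and 1993 under DMSO. Its log2 fold change was -1.48 at 24 h and -0.98 at 48 h (adjusted p = 3.68e-06 and 1e-04), and 3 of its 5 probe sets at 24 h and 4 at 48 h passed, all lower. TNFRSF10B, a death receptor for the ligand TRAIL, fell by 0.72 on the log2 scale at 24 h and 0.81 at 48 h, with 3 of 4 probe sets lower at both times. DDB2, which recognizes DNA damaged by ultraviolet light, fell by 0.37 and 0.46, and the cytokine gene LIF fell by 0.31 and 0.24. The fifth gene lower at both times, named after its values were seen, was TNFRSF10A, a second TRAIL receptor, at -0.18 and -0.19.

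**Figure D4:**
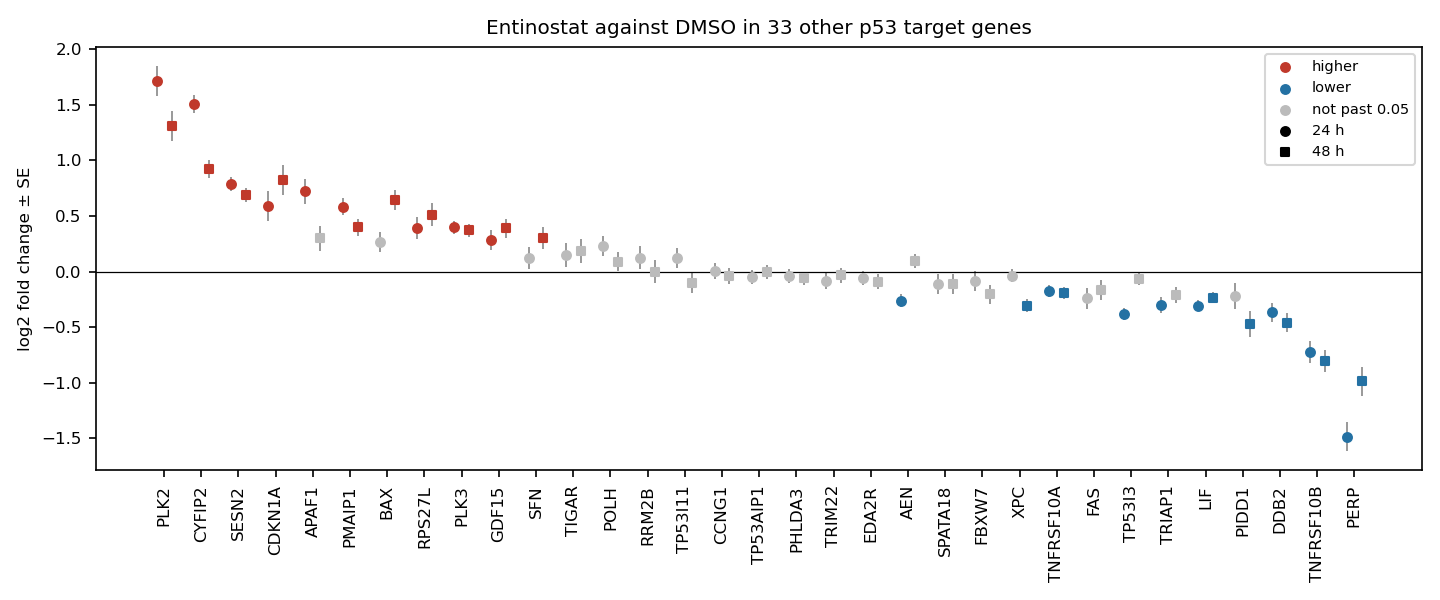
Log2 fold change (± standard error) of entinostat against DMSO at 24 h (circles) and 48 h (squares) for the 33 other p53 target genes, ordered by the mean of both times. PLK2 and CYFIP2 are at the upper end and TNFRSF10B and PERP at the lower end, with 16 genes not past the threshold at each time.

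Of 31 listed genes that act on p53 or with it, 28 were measured, of which 2 were higher and 12 lower at each time (50%). Of all genes, 33.2% passed at 24 h, 18.2% higher and 15.0% lower, and 34.0% at 48 h, 17.3% higher and 16.6% lower. All genes include those of low signal, and the share among genes of like intensity was not counted. The list was chosen with earlier results of these data known. The median log2 fold change of the 28 was -0.22 at 24 h and -0.25 at 48 h. Of the 28, 9 were lower at both times, a count without a share over all genes beside it. HIPK2, a kinase that phosphorylates p53, had 494, 433.5 and 442 under entinostat at 24 h, against 711, 850.4 and 708 under DMSO. Its log2 fold change was -0.72 at 24 h and -0.62 at 48 h (adjusted p = 0.000216 and 0.000706), with 4 of its 10 probe sets lower at each time. CREBBP, an acetyltransferase that acts as a coactivator of p53, fell by 0.67 and 0.56, and TP53BP2, whose protein steers p53 towards cell death genes, fell by 0.43 and 0.57. RCHY1, another ubiquitin ligase for p53, fell by 0.72 at 24 h and 0.39 at 48 h. Its call at 48 h was lost in all 9 fits made without 1 array of a group other than DMSO 48 h, and the log2 fold change was -0.19 without DMSO 48 h replicate 1, whose intensity was 979.5 beside 629 and 659 in replicates 2 and 3. At 48 h, 3 of the 4 RCHY1 probe sets passed. Besides the probe set above, 214281_s_at had -0.73 at 24 h and -0.69 at 48 h, and 212743_at had -0.65 and -0.59. The probe set 235300_x_at had -0.49 at 24 h and 0.04 at 48 h. HEXIM1, an inhibitor of the elongation kinase P-TEFb, was the one gene of this list higher at both times, by log2 fold changes of 1.32 and 1.24 (adjusted p = 5.35e-06 and 7.97e-06). Of its 3 probe sets, 2 were higher and 1 lower at 24 h, and all 3 were higher at 48 h.

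The genes whose log2 intensities followed each risen member most closely over the 12 arrays were sought among 9352 or 9353 genes with a mean log2 intensity of at least 7. The arrays share their 4 groups, so that any gene with the same group means scores high, and the correlations describe these arrays alone. For GADD45A they were CDH2 (N-cadherin, r = 0.995), BTN2A2 (a butyrophilin, r = 0.989) and SRXN1 (sulfiredoxin, r = 0.987), and 1015 genes reached an r of at least 0.9. For GADD45B, by its probe set of the highest mean, they were EHD4 (r = 0.969), TNFAIP8L1 (r = 0.962) and SEMA4F (r = 0.961), with 218 genes at 0.9 or more. For ZMAT3 they were LINC02981 (r = 0.973), ALG13 (r = 0.970) and KMT2E (r = 0.970), with 204 genes at 0.9 or more. At 24 h the log2 fold change of LINC02981 was 1.03, beside 0.29 for ZMAT3, and at 48 h it was 2.06, beside 0.68.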

How the data were processed

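RNA of 12 HD-MB03 cultures was hybridized to Affymetrix U133 Plus 2.0 arrays. The authors deposited intensity values on a linear scale that they had normalized between arrays. The submitters' processing notes name GCRMA, with a version not given in the sources used here. In R 4.3.3, log2 was taken, 62 control probe sets were left out, 2 cells were empty, and limma 3.58.1 was fitted with 1 coefficient per group. Benjamini-Hochberg adjustment ran over 54613 probe sets with a threshold of 0.05. Of these, 41091 carry 1 gene symbol, 1801 several and 11721 none, and only the first kind names a gene. Genes of lists were represented by the probe set of the highest mean. The members, the 3 lists and the naming rule were chosen with earlier results of these data known. The rule names the 9 members, CDKN1A, up to 4 genes higher and 4 lower at both times from each list, and the 3 genes most alike to a member that passed at both times. Alternatives tried were leaving out dim probe sets, background corrections, centring, quantile normalization, another prior, separate fits, a replicate block, another threshold, other probe sets per gene, and leaving out each array. The procedure was tested on simulated data. The number of arrays limits the precision, and p-values measure the spread between these cultures of 1 cell line.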

Additional observations from a re-analysis of the deposited data

Results flagged for a closer look

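ZMAT3 (228315_at) differed between the times in its response to entinostat: the log2 fold change was 0.68 at 48 h and 0.29 at 24 h, a difference of 0.39 (standard error 0.08) that passed limma's test of the interaction (adjusted p = 0.0431). The call was lost in 11 of the 12 refits that left out 1 array and in 3 of 8 other settings (adjusted p up to 0.147). All 5 ZMAT3 probe sets had a positive difference, and 1 passed the threshold. The 5 read the same gene on the same arrays, so they are not separate evidence.

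CYFIP2 (215785_s_at) differed in the other direction, at 0.92 (log2 fold change) after 48 h and 1.51 after 24 h, a difference of -0.59 (standard error 0.11, adjusted p = 0.0324 in limma's interaction test). Its call held without DMSO 24 h replicate 2, entinostat 24 h replicate 1, DMSO 48 h replicate 1 or entinostat 48 h replicate 2 and was lost in the other 8 refits that left out 1 array (adjusted p of 0.0617 to 0.0834), with differences of -0.66 to -0.54 over the 12. It was also lost with 30 subtracted from every value (-0.68, adjusted p = 0.0909). The second CYFIP2 probe set, 220999_s_at, had a difference of -0.17 (adjusted p = 0.452) that did not pass.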

How the results depend on the processing

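The alternatives for the treatment values of the member probe sets were up to 9 other settings and 12 refits that left out 1 array. Of 1320 such values, 1269 kept their direction and side of the threshold. Of the rest, 46 lost their call, 5 gained one and 0 turned with a call. The 46 losses all fell on the 24 treatment results called in the main fit, and most of the 1320 values belong to results not called there. Direction was judged only where a value was called, and 34 uncalled values took another sign. With probe sets under a mean log2 of 7 left out, 9 of the 20 members left passed at 48 h, and with a threshold of 0.01 it was 7 of 32. The share of all probe sets that passed was not counted for these or the other alternatives, so the counts here have no background beside them. The count in the interaction was 0 with 30 subtracted from every value, with a trended robust prior and with a threshold of 0.01. The count between 48 h and 24 h in entinostat was 2 with 30 subtracted and 2 with a threshold of 0.01. With the probe set of the strongest effect, 8 family relatives passed at 48 h. That choice goes by the p-value of the treatment effect in limma's fit, so it raises the count in any list. The share of all genes that passed under it was not counted. Without probe sets ending in x_at or s_at, 10 of 23 p53 targets passed at 24 h and 11 at 48 h. Of 20 regulators, 9 passed at 24 h. Fewer genes were measured in these counts, and the share of all genes that passed under this choice was not counted either. HEXIM1, then by its remaining probe set, had -0.35 (log2 fold change) after 24 h and 0.17 after 48 h, while PERP had -0.46 and -0.44. Leaving out 1 array at a time gave 8 to 11 members past the threshold at 24 h, 9 to 14 at 48 h (9 without entinostat 48 h replicate 1), 0 to 1 in the interaction, 2 to 6 between the times in entinostat (2 without entinostat 24 h replicate 1) and 0 to 0 in DMSO. The calls of GADD45A never changed in these alternatives, while GADD45B 209304_x_at at 48 h lost its call without any array of 48 h other than DMSO replicate 3 (log2 fold change 0.23 to 0.26 over the 12 refits), GADD45B 213560_at at 48 h without entinostat 48 h replicate 2 (0.29, adjusted p = 0.0514 in limma) and ZMAT3 1555609_a_at at 24 h without any array of 24 h (0.28 to 0.32). With the replicate number as a block, the counts were 10 at 24 h, 14 at 48 h, 1 in the interaction and 4 between the times in entinostat, and no paired result is given since no label ties the numbers to a shared culture or day. Deviations from the group means correlated at -0.06 to 0.20 (median 0.06) between same-numbered arrays of different groups, with 4 of 18 pairs over 0.1, and at -0.21 to 0.07 (median -0.01) between differently numbered arrays, with 0 of 36 over 0.1. Of the 12 arrays, 10 correlated best with an array of their own number, a hint from the data of a shared replicate effect. For the other named genes, 713 of 726 values were the same in direction and call. Low signal limits all 4 GADD45B probe sets, which the minimum of 7 leaves out, TP53INP1 235602_at (-0.48 at 48 h with 30 subtracted) and the dim MDM2 probe sets. With 30 subtracted, GADD45B 213560_at had 0.62 at 24 h and 0.57 at 48 h.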
